A study of Mus musculus with 24 samples.

Results

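Major histocompatibility complex class II genes were followed in the prefrontal cortex (PFC) of mice after chronic social stress and a glucocorticoid challenge. The set was given by name as 7 genes: H2-Aa, H2-Ab1 and H2-Eb1, which encode chains of the class II molecules, Cd74, H2-DMa, H2-DMb1 and Ciita. Of these, 6 had a row among the 14074 genes of the normalized count table and all 6 were tested. Ciita, which encodes the class II transactivator, had no row in the table analysed and no value is given for it. The genes were chosen by name and in part by measured values: a gene needed a row in the table, and the set was drawn up when earlier results of these libraries had already singled out the response of H2-Eb1 to dexamethasone in AS against control mice. That difference is therefore given as a description, with no p, and its count of calls is printed for completeness only. The DEX effects in AS and in control mice and AS against control on saline are built from the same libraries. For H2-Eb1 their p-values and calls are thus a description too. The p-values of the other comparisons describe these libraries and are not independent support for the choice of genes.

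All mice were males of the C57BL/6 strain, adult by the study's methods, and each library came from the PFC of 1 mouse. Stressed mice had met aggressive CD1 males every day for 30 days and were then divided by their behaviour during non-aggressive contact into passive coping mice (PS, dep1 in the labels) and active coping mice (AS, dep2 in the labels), while control mice were not defeated and had lived alone for some days. Mice of each phenotype received saline or dexamethasone (DEX), a synthetic ligand of the glucocorticoid receptor, at 2 mg/kg, and tissue was taken 6 h later. This gave 6 groups of 4 libraries, 24 in all. Housing, contact with CD1 mice and defeat differ together between control and stressed mice, and their parts cannot be told apart.

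Class II molecules present peptides from the endosomal pathway to CD4+ T cells. An alpha and a beta chain pair in the endoplasmic reticulum around the invariant chain, encoded by Cd74, which blocks the groove until endosomal proteases degrade it. The H2-DM heterodimer then exchanges the last fragment of the invariant chain for peptide. In the mouse, H2-Aa and H2-Ab1 encode the 2 chains of I-A and H2-Eb1 encodes the beta chain of I-E, whose alpha chain gene is defective in C57BL/6 mice, so that this strain carries H2-Eb1 RNA without surface I-E. In the healthy brain, class II is known from border-associated macrophages and dendritic cells of the meninges and perivascular spaces, and little from resting microglia. Glucocorticoids are known to lower class II expression in many antigen-presenting cells.

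Of the 6 genes measured, all but Cd74 lie together on chromosome 17 (mm10). H2-DMa spans positions 34119541 to 34139101 and H2-DMb1 positions 34153072 to 34160230, followed by H2-Ab1 from 34257689 to 34269419 and H2-Eb1 from 34305867 to 34316674, all on the plus strand. H2-Aa, from 34282744 to 34287823, is on the minus strand. Class II promoters are known for an X box, bound by the RFX complex, followed at a fixed distance by a Y box, an inverted CCAAT sequence bound by NF-Y, on which the transactivator assembles. The RefSeq promoter table (GRCm38.p6), which holds 250 bases before to 50 bases after each start, had entries for 4 of the 7 genes. GNAACT, the core letters of the X box, was searched with ATTGG beginning 25 to 40 bases further on the same strand. This pair was found on the strand of the gene for 3 of these, H2-Aa, H2-Eb1 and H2-DMb1. Of all 32851 windows, 0.728% held it when either strand of the window was allowed, which is a wider search. This pair of letters and its distance were chosen after these sequences had been seen. Windows for 2 starts of H2-DMa held no such pair. The stretches from 100 to 31 bases before the start are shown so that the shared layout can be read, 5′ to 3′ on the strand of the gene, with both motifs in capitals, for H2-DMb1 (chr17:34153091-34153160, plus strand), H2-Aa (chr17:34287854-34287923, minus strand) and H2-Eb1 (chr17:34305767-34305836, plus strand).
H2-DMb1: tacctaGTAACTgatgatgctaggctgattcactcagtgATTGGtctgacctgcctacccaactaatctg
H2-Aa: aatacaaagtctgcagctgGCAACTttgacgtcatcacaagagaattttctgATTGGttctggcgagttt
H2-Eb1: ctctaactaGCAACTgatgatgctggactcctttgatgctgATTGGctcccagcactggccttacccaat
The distance from the first letter of one motif to that of the other was 33 bases in H2-DMb1 and H2-Aa and 32 bases in H2-Eb1. TGACGTCA, the cyclic AMP response element, followed the X box core of H2-Aa only and stood in 1.79% of all windows on either strand. The glucocorticoid response element, as its full palindrome with 3 free bases between the arms (0.00913% of windows), and the core of the interferon-stimulated response element (3.44% of windows) were not matched in these windows on either strand, which says nothing about binding elsewhere.

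Values are normalized counts, that is, reads on a gene divided by a size factor of the library. Depth ran from 21121869 to 59439645 reads on genes, with group medians from 22869703 in control saline to 37876626 in AS DEX, so that the AS groups were sequenced more deeply than the control groups. The 6 genes were low in every library, at 17 to 782 reads each, and H2-DMb1, H2-Ab1, H2-Eb1 and H2-Aa had medians of 45 to 59 reads. Libraries of the same group differed by more than counting error, and none was counted as a duplicate. The DEX labels held for Fkbp5, a direct glucocorticoid receptor target, which rose by 2.26, 2.00 and 1.91 (log2) in control, PS and AS mice (limma, adjusted p = 8.11e-13, 1.19e-11 and 3.36e-11). Neuronal markers were present as the tissue label requires, with summed counts of 7 pyramidal neuron markers from 157403 to 227457.

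Levels of different genes were compared only as RPKM, the recovered reads per kilobase of exon scaled to the reads on genes of the library. Cd74 (4.46 ± 1.83 RPKM, SD, n = 24 libraries) and H2-DMa (3.70 ± 0.513) had the highest levels. H2-Eb1 (1.23 ± 0.536), H2-DMb1 (1.0 ± 0.256), H2-Ab1 (0.805 ± 0.392) and H2-Aa (0.690 ± 0.346) followed. On this scale the invariant chain was thus above each of the chains it binds. The lengths are those of all exons of a gene joined, so that genes with long rare exons are placed too low. H2-DMb1 has a near-identical copy beside it, H2-DMb2, which had no row in the table analysed, and reads of the pair may be divided or lost in counting.

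**Figure D1:**
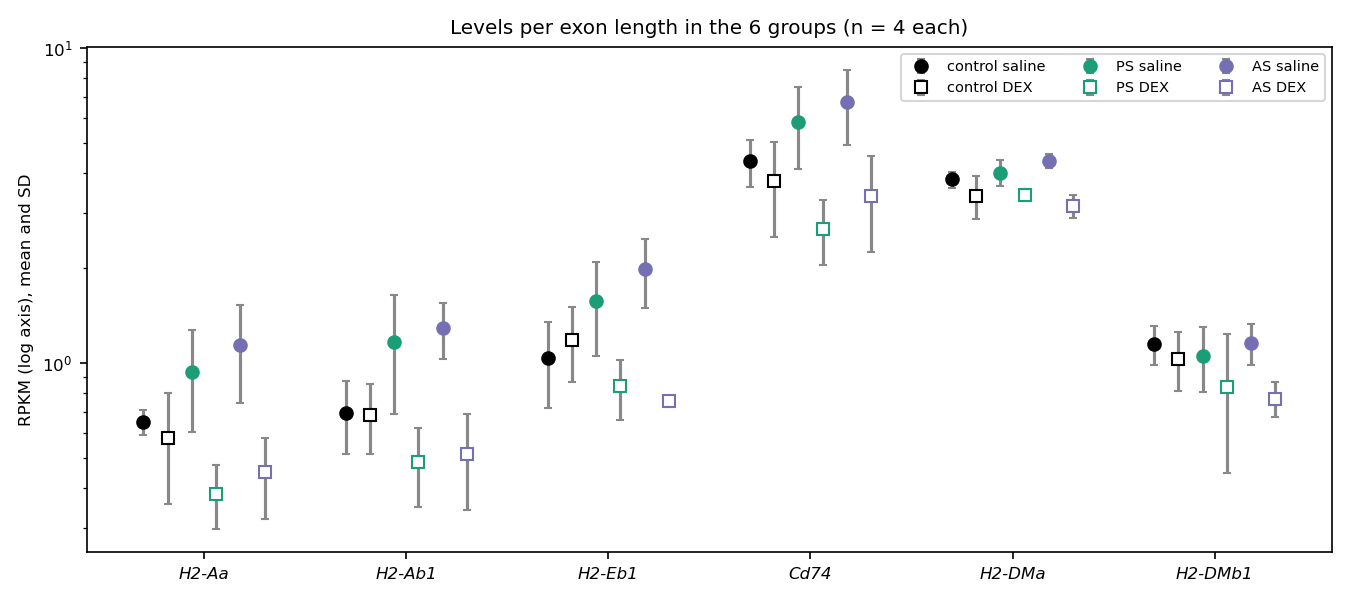
Level of each class II gene per exon length (y axis, RPKM, log axis) in the 6 groups, as mean and SD of 4 libraries. Filled circles are saline and open squares DEX, in black for control, green for PS and violet for AS; Cd74 and H2-DMa lie above the other 4 genes in every group.

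The level of the I-A, I-E and invariant chain genes was highest in stressed mice on saline and lowest in stressed mice on DEX, with both control groups between. The mean order for H2-Aa, H2-Ab1 and Cd74 was AS saline, PS saline, control saline, control DEX, AS DEX and PS DEX. For H2-Eb1, control DEX came before control saline and PS DEX before AS DEX. In all 6 genes, each group overlapped the next group in its order (30 of 30 neighbouring pairs), so that the order is carried by groups further apart.

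H2-Aa, the alpha chain of I-A, was at 62.1, 67.6, 69.3 and 75.8 normalized counts in control mice on saline. In PS mice on saline it was at 57.8, 86.6, 110 and 141, and in AS mice on saline at 77.0, 90.9, 151 and 159. The AS values were all above the control values, while the PS values spread from below to far above them. After DEX it was at 40.5, 45.8, 68.5 and 91.4 in control mice, at 27.6, 41.3, 43.5 and 49.0 in PS mice and at 35.5, 37.9, 52.5 and 66.8 in AS mice. All PS DEX libraries were below all PS saline libraries, and the same held in AS mice, whereas the control groups overlapped.

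H2-Ab1, the beta chain of I-A, had the same layout. Control mice on saline were at 33.7, 47.0, 52.9 and 64.5 normalized counts, PS mice at 47.3, 62.2, 103 and 119, and AS mice at 66.5, 88.6, 97.3 and 113. DEX libraries were at 36.1, 44.1, 52.3 and 64.0 in control mice, 21.5, 32.8, 40.4 and 42.4 in PS mice and 23.9, 32.5, 37.4 and 55.3 in AS mice. Saline and DEX libraries did not overlap in PS or in AS mice and covered nearly one range in control mice.

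H2-Eb1, the beta chain of I-E, was at 32.4, 57.7, 66.4 and 66.9 normalized counts in control mice on saline, 57.8, 66, 95.9 and 118 in PS mice and 70.0, 103, 125 and 127 in AS mice. After DEX it was at 43.4, 58.4, 77.0 and 79.0 in control mice and at 36.4, 41.6, 43.9 and 58.8 in PS mice. The 4 AS DEX libraries lay close together, at 39.5, 41.3, 41.5 and 42.6. In PS mice 1 DEX library, from mouse 56, was above the lowest saline library, and in AS mice all DEX libraries were below all saline libraries.

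Cd74, the invariant chain, lies apart from the others on chromosome 18 (mm10, 60803848 to 60812652, plus strand). It was at 173, 184, 214 and 245 normalized counts in control mice on saline, 185, 228, 310 and 357 in PS mice and 209, 274, 380 and 381 in AS mice. DEX libraries were at 123, 139, 199 and 249 in control mice, 89.6, 114, 135 and 156 in PS mice and 121, 122, 159 and 242 in AS mice. Here the PS groups did not overlap, and in AS mice the DEX library of mouse 72 was above the lowest saline library.

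H2-DMa, the alpha chain of the peptide exchange factor, varied least. Control mice were at 337 to 394 normalized counts on saline and 266 to 383 after DEX, and PS mice at 346 to 432 and 316 to 342. AS mice were at 389, 417, 420 and 439 on saline and at 276, 306, 312 and 323 after DEX, with a clear gap between the treatments. H2-DMb1, its partner chain, was at 41.0 to 66.3 in the 3 saline groups together. After DEX it was at 33.4 to 54.6 in control mice, 20.8 to 62.0 in PS mice and 29.5 to 40.6 in AS mice.

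**Figure D2:**
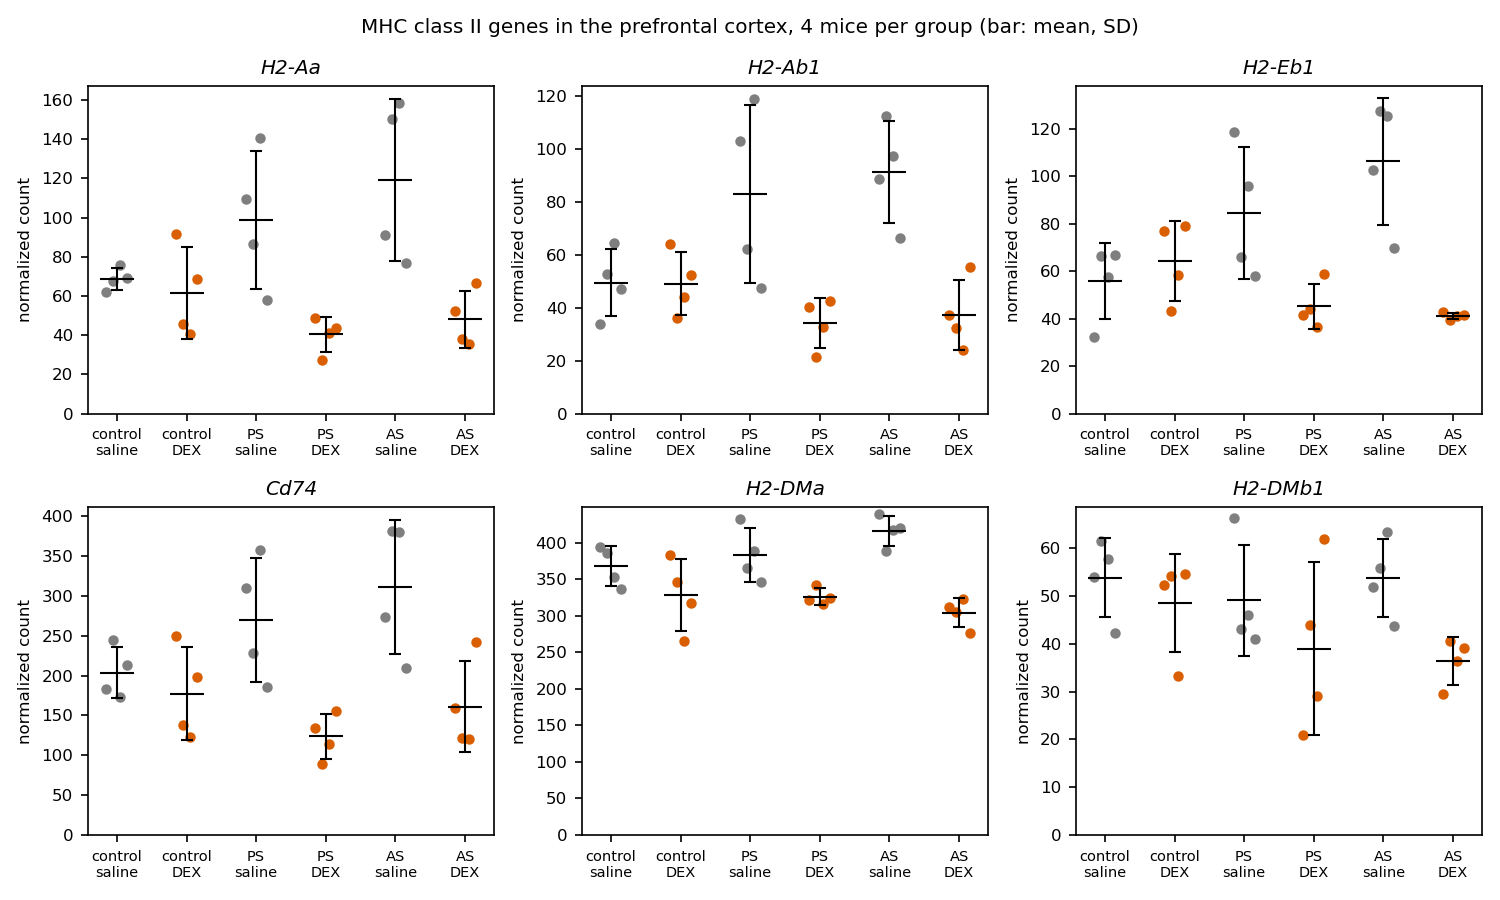
Normalized count (y axis) of the 6 class II genes in each library, 4 mice per group (grey: saline, orange: DEX), with the group mean and SD in black. The means of H2-Aa, H2-Ab1, H2-Eb1 and Cd74 are higher on saline than after DEX in PS and AS mice. The saline and DEX ranges overlap for H2-Eb1 in PS mice, for Cd74 in AS mice and for each of these genes in control mice.

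The first question of the design was what DEX did in each phenotype. In PS mice, DEX lowered both I-A chains, the I-E beta chain and the invariant chain, and in AS mice it lowered these and H2-DMa. In PS mice the log2 fold change was -1.23 (SE 0.28) for H2-Aa, -1.20 (SE 0.29) for H2-Ab1, -1.10 (SE 0.25) for Cd74 and -0.85 (SE 0.25) for H2-Eb1 (limma, adjusted p = 0.0117, 0.0153, 0.0112 and 0.0576). Their means were 59.1%, 58.6%, 54.2% and 46.5% lower than in PS saline. With 4 of 6 genes called lower, the share stood against 2.65% of all 14060 genes called lower in that comparison (5.40% called in either direction), and the median over the 6 genes was -0.98 beside 0.00 over all genes. H2-DMa (-0.23, SE 0.09, adjusted p = 0.238 by limma) and H2-DMb1 (-0.41, SE 0.25, adjusted p = 0.524) did not pass. The libraries of the PS groups did not overlap for H2-Aa, H2-Ab1, Cd74 and H2-DMa, beside 4.57% of all genes without overlap in that direction. The call of H2-Eb1 was the least firm: its adjusted p was 0.248 without the saline library of mouse 2, 0.166 without that of mouse 62, and 0.137, 0.114 and 0.160 without the DEX libraries of mice 6, 34 and 52 (limma).

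In AS mice the log2 fold change was -1.31 (SE 0.25) for H2-Eb1, -1.31 (SE 0.29) for H2-Ab1, -1.27 (SE 0.28) for H2-Aa, -0.96 (SE 0.25) for Cd74 and -0.45 (SE 0.09) for H2-DMa (limma, adjusted p = 0.00188, 0.00639, 0.00721, 0.0234 and 0.00387). Means were lower by 61.2% for H2-Eb1, 59.1% for H2-Ab1, 59.6% for H2-Aa, 48.3% for Cd74 and 26.9% for H2-DMa. The count was 5 of 6 genes, against 4.97% of all genes called lower (8.80% in either direction), and the median over the 6 genes was -1.12 beside 0.00. The fall of H2-Eb1 is part of the difference that helped to choose the genes. Its p and its place in these counts are therefore a description. H2-DMb1 was 32.2% lower in the mean, with libraries that did not overlap, and did not pass (-0.55, SE 0.25, adjusted p = 0.231). Libraries did not overlap for 5 of 6 genes, Cd74 being the exception, beside 5.03% of all genes. Each of the 5 calls was kept when any 1 of the 24 libraries was left out.

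In control mice none of the 6 genes passed the test by limma, edgeR or DESeq2, and none had an unadjusted p under 0.05, while 6.51% of all genes were called. The log2 fold changes were 0.22 (SE 0.25) for H2-Eb1, -0.01 (SE 0.29) for H2-Ab1, -0.23 (SE 0.28) for H2-Aa, -0.24 (SE 0.25) for Cd74, -0.17 (SE 0.09) for H2-DMa and -0.16 (SE 0.25) for H2-DMb1. The sign for H2-Eb1 turned without the saline library of mouse 106 (-0.02), that for H2-Ab1 when 1 of 4 control libraries was left out (up to 0.13) and that for H2-DMb1 without the DEX library of mouse 112 (0.01). The DEX library of mouse 101 was the highest of its group for H2-Aa, H2-Ab1, Cd74 and H2-DMa.

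**Figure D3:**
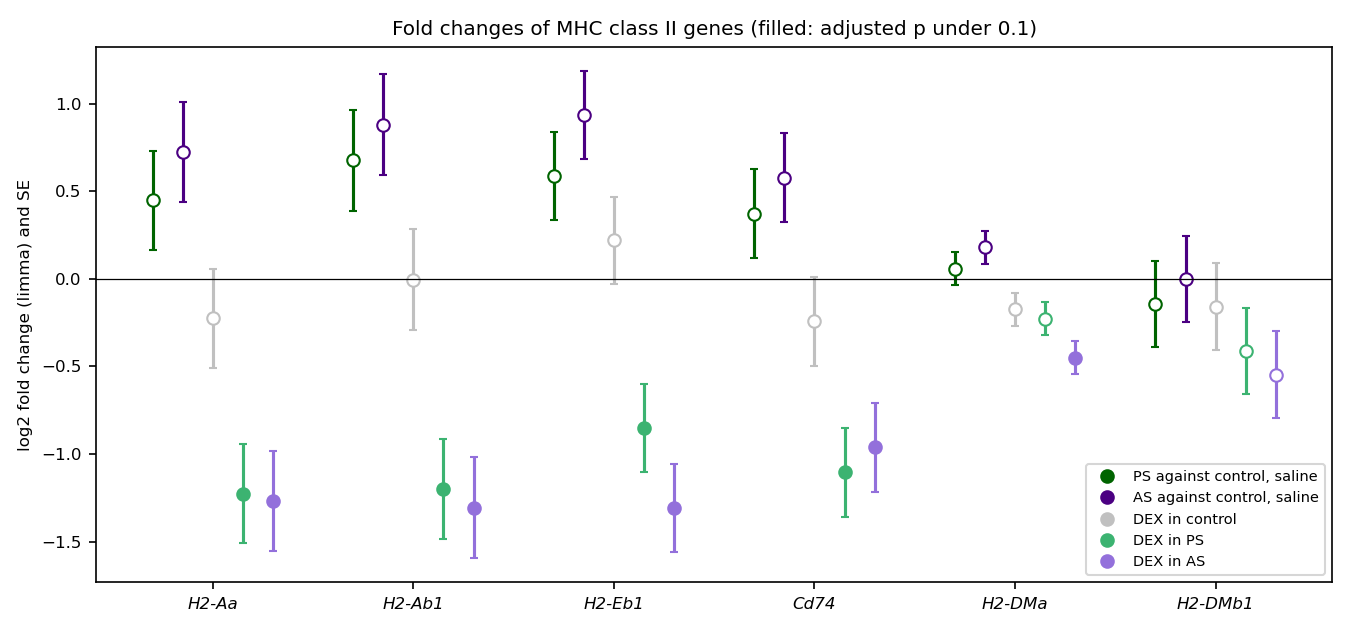
Log2 fold change of each class II gene with its SE (y axis, limma on log2(normalized count + 1), all 24 libraries) in 5 comparisons, shown by colour; filled points have an adjusted p under 0.1. The DEX effects in PS and AS mice lie between -0.85 and -1.31 for H2-Aa, H2-Ab1, H2-Eb1 and Cd74, and those in control mice between -0.24 and 0.22.

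Stress by itself was compared on saline. H2-Eb1, H2-Ab1, H2-Aa and Cd74 had higher means in both stressed phenotypes than in control mice, and none of the 6 genes passed the test over all genes. In AS against control mice, log2 differences were 0.93 (SE 0.25) for H2-Eb1, 0.88 (SE 0.29) for H2-Ab1, 0.72 (SE 0.28) for H2-Aa and 0.58 (SE 0.25) for Cd74, with limma adjusted p = 0.220, 0.274, 0.353 and 0.410. By limma, 4 of 6 had an unadjusted p under 0.05, as did 1548 of all 14060 genes. At the adjusted threshold, limma called 0.185% of all genes. H2-DMa (0.18, SE 0.09) and H2-DMb1 (0.00, SE 0.25) were closer to control. All 4 AS libraries were above all 4 control libraries for H2-Eb1, H2-Ab1 and H2-Aa, a pattern seen in 3.45% of all genes. DESeq2 on recovered reads called H2-Eb1 (0.93, adjusted p = 0.0613), as did limma without the AS saline library of mouse 44 (1.12, adjusted p = 0.0986), and edgeR called none. These libraries also enter the difference that helped to choose the genes, so the calls of H2-Eb1 are a description.

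In PS against control mice the log2 differences were 0.67 (SE 0.29) for H2-Ab1, 0.59 (SE 0.25) for H2-Eb1, 0.45 (SE 0.28) for H2-Aa and 0.37 (SE 0.25) for Cd74, and 0.06 (SE 0.09) and -0.14 (SE 0.25) for H2-DMa and H2-DMb1. By limma 2 of 6 genes had an unadjusted p under 0.05, as did 1852 of all 14060 genes. At the adjusted threshold, limma, edgeR and DESeq2 called none of the 6, while limma called 1.51% of all genes. The PS group was wide, with the saline libraries of mice 2 and 62 well above those of mice 28 and 68. AS against PS mice gave 0.35 (SE 0.25) for H2-Eb1 and 0.12 to 0.28 for the other 5 genes. There 0.00% of all genes were called by limma, none of the 6 genes had an unadjusted p under 0.05, and edgeR and DESeq2 called none of the 6.

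The design also asks whether the DEX response differed between phenotypes. Each such difference shares its control or saline libraries with the comparisons above. The response of AS minus that of control mice was -1.53 (SE 0.35) for H2-Eb1, -1.30 (SE 0.41) for H2-Ab1, -1.04 (SE 0.40) for H2-Aa, -0.72 (SE 0.36) for Cd74, -0.28 (SE 0.13) for H2-DMa and -0.39 (SE 0.35) for H2-DMb1 on the log2 scale. These values are a description, since this comparison helped to choose the genes. The count of calls, from which nothing is read, was 1 of 6 (H2-Eb1) beside 0.349% of all genes, and it was 0 in 15 of the 24 fits without 1 library and 2 without the AS saline library of mouse 44. For PS minus control the differences were -1.20 (SE 0.41) for H2-Ab1, -1.07 (SE 0.35) for H2-Eb1, -1.0 (SE 0.40) for H2-Aa, -0.86 (SE 0.36) for Cd74, -0.25 (SE 0.35) for H2-DMb1 and -0.05 (SE 0.13) for H2-DMa. None of these passed by limma, edgeR or DESeq2 (limma adjusted p = 0.369 for H2-Ab1 and H2-Eb1), and limma called 0.00% of all genes. By limma, 4 of 6 had an unadjusted p under 0.05, as did 1406 of all 14060 genes. A weaker response of these genes in control than in PS mice is thus not shown by the test of the difference itself. For AS minus PS the differences ran from -0.46 (SE 0.35) for H2-Eb1 to 0.14 (SE 0.36) for Cd74. None of the 6 passed by any of the 3 tools or had an unadjusted p under 0.05, beside 0.00% of all genes.

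H2-Aa, H2-Ab1, H2-Eb1 and Cd74 moved together from library to library, also within groups. As a description over 24 libraries, which share their depth and dissection, Pearson's r of the log2 values was 0.97 for H2-Aa with Cd74, 0.95 for H2-Aa with H2-Ab1 and 0.88 for H2-Eb1 with H2-Ab1, and within groups, after subtracting each group's mean, 0.93, 0.87 and 0.70. The ratio of the RPKM of Cd74 to that of H2-Aa had group means from 6.02 in AS saline to 7.50 in AS DEX. Its values in these groups did not overlap (5.42 to 6.82 in AS saline and 6.87 to 8.19 in AS DEX). H2-DMa and H2-DMb1 followed the other 4 less closely, with r of 0.61 to 0.67 and 0.47 to 0.57 over all libraries and 0.02 to 0.19 and 0.19 to 0.43 within groups. The summed count of H2-Aa, H2-Ab1, H2-Eb1 and Cd74 was 378 ± 50.5 in control saline, 352 ± 107 in control DEX, 536 ± 169 in PS saline, 243 ± 50.9 in PS DEX, 628 ± 169 in AS saline and 288 ± 84.4 in AS DEX (SD, n = 4).

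The genes whose levels followed these 4 most closely were ranked by Pearson's r with their mean centred log2 profile over the 24 libraries, over 13267 genes whose mean reached 20 normalized counts. The first 10 were Gjb2 (r = 0.93), a gap junction gene, Serpinh1 (0.92), a collagen chaperone, Steap3 (0.91), Lyz2 (0.91), the lysozyme of macrophages and microglia, Ranbp3l (0.89), Cd248 (0.89), a marker of fibroblasts and pericytes, Rab3il1 (0.88), Pik3ap1 (0.87), Loxl1 (0.87), an elastin crosslinking enzyme, and Aqp4 (0.87), the astrocyte water channel. Spearman's rho was 0.83 to 0.93 for these genes and r within groups 0.59 to 0.87. In the same ranking H2-DMa stood at position 394 (r = 0.66) and H2-DMb1 at position 902 (r = 0.54). DEX lowered all 10 in PS mice (-0.97 to -0.50) and in AS mice (-1.08 to -0.48), and none was called in control mice (-0.32 to 0.12) by limma. As these genes were picked for following the class II profile over the same libraries, their changes are a description.

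Other genes of the class II pathway moved little. Of 13 regulators with a row, which include the RFX and NF-Y subunits and the interferon gamma receptor and its signalling, DEX lowered 2 in PS mice and 2 in AS mice and raised none. Nfya, an NF-Y subunit, fell in both (-0.36, SE 0.09, and -0.32, SE 0.09, limma adjusted p = 0.0167 and 0.0321). Irf1, an interferon-induced factor that acts on Ciita, fell in AS mice (-0.44, SE 0.11, adjusted p = 0.0227 by limma). Irf1 was at 188 ± 20.2 normalized counts in control, 236 ± 17.6 in PS and 234 ± 22.9 in AS mice on saline, and at 192 ± 26.0, 199 ± 26.4 and 173 ± 18.4 after DEX (SD, n = 4). Under stress, PS mice had higher Nfyb (0.21, SE 0.05, adjusted p = 0.0707) and lower Rfxank (-0.29, SE 0.08, adjusted p = 0.0948) than control mice (limma), and no regulator was called in AS mice. Medians over the 13 regulators stayed between -0.04 and 0.02 in all 9 comparisons.

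Of 7 genes for antigen processing in endosomes, DEX lowered 1 in PS mice, Ifi30, a thiol reductase that opens disulfide bonds of antigens (-0.70, SE 0.18, limma adjusted p = 0.0231), and 1 in AS mice, the cathepsin Ctsh (-0.46, SE 0.14, adjusted p = 0.0566). The abundant proteases Ctsb and Ctsd were not called in any comparison. March1 and March8, ubiquitin ligases that remove class II from the surface, were not called either. H2-Eb2, H2-DMb2, H2-Oa, H2-Ob and H2-Ea-ps, the co-stimulatory genes Cd40, Cd80 and Cd86, and the regulators Irf4, Irf8 and Socs1 had no row in the table analysed.

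In bulk tissue, fewer class II bearing cells and less class II RNA per cell cannot be told apart. Markers of the cells that could carry class II were measured beside it. Of the T cell list 0 of 7 markers had a row, of monocytes and neutrophils 0 of 7, of B cells 1 of 7 (Ighm, 191 to 681 normalized counts over all libraries, not called in any comparison) and of choroid plexus 0 of 5. Of the dendritic cell list 3 of 9 markers had a row, and Itgax, Xcr1, Clec9a and Ccr7 had none. Flt3 rose after DEX in control, PS and AS mice (0.68, 0.86 and 0.96, limma adjusted p = 0.00133, 0.000128 and 3.61e-05), while Zbtb46 and Batf3 fell in AS mice (-0.35 and -0.81, adjusted p = 0.0410 and 0.0852). Flt3 and Zbtb46 are also expressed by other brain cells.

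Microglia had all 14 markers in the table. Their summed level was 13038 to 14381 normalized counts in control saline, 12152 to 16004 in control DEX, 13865 to 15314 in PS saline, 11976 to 13409 in PS DEX, 15031 to 15964 in AS saline and 11840 to 14098 in AS DEX. In PS and in AS mice the DEX libraries were thus all below the saline libraries, as for H2-Aa and H2-Ab1, while Cx3cr1 (-0.83 and -0.73), Aif1, P2ry12, Gpr34, Fcrls and Siglech, 6 of 14, fell in both and none rose. In control mice P2ry12, Aif1 and Fcrls fell, and the class II genes did not pass. With the summed microglia level as a covariate, an alternative chosen after seeing the data, 1 of 6 class II genes was called lower after DEX in PS mice (H2-Ab1) and 1 in AS mice (H2-Eb1), and the medians over the 6 genes were -0.70 and -0.72. In these fits 955 of all 14060 genes were called lower in PS mice, against 373 without the covariate, and 211 in AS mice, against 699. The covariate itself falls with DEX in the stressed mice, and how much of the class II difference belongs to it cannot be told apart.

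Border macrophage markers had 5 of 9 rows, without Cd163, F13a1, Ms4a7 and Clec12a. DEX lowered Pf4, a marker of these cells, in PS mice from 33.3 ± 10.9 to 8.56 ± 3.40 normalized counts and in AS mice from 31.5 ± 6.10 to 12.2 ± 8.15 (SD, n = 4, limma log2 fold change -1.86 and -1.60, adjusted p = 0.0138 and 0.0303), and Cbr2 in AS mice (-1.10, adjusted p = 0.0295). Lyve1 went the other way, rising after DEX in control mice (1.55, adjusted p = 1.41e-05) and PS mice (0.73, adjusted p = 0.0337). Mrc1, the mannose receptor, was not called in any comparison. The summed level of the 5 ran from 572 (PS DEX) to 1561 (AS saline), and saline and DEX libraries overlapped in PS and in AS mice. The library highest in this sum was also the highest of its group in 5 of 6 groups for H2-Aa and H2-Ab1, in 4 for Cd74, in 2 for H2-DMb1 and in 1 for H2-Eb1 and H2-DMa. The part of these cells in the class II differences was not tested.

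Leptomeningeal markers, genes of the fibroblasts that cover the brain surface, had 7 of 8 rows and varied widely between libraries. Their summed level was 2138 to 3624 normalized counts in control saline, 2905 to 4680 in control DEX, 2356 to 5278 in PS saline, 1325 to 4382 in PS DEX, 3253 to 4750 in AS saline and 2152 to 3940 in AS DEX. The PS saline libraries of mice 62, 2, 28 and 68 held 5278, 4810, 3426 and 2356, the same order as their H2-Aa values, and H2-Aa and these markers put the 4 libraries in the same order in 3 of 6 groups. The same order was found in 2 of 6 groups for H2-Ab1, in 3 for Cd74 and in 0 for H2-Eb1, H2-DMa and H2-DMb1. Such matches were not particular to leptomeningeal markers. For H2-Aa, H2-Ab1 and Cd74, border macrophage markers gave the same order in 2, 2 and 3 of 6 groups. Endothelial markers did so in 1, 2 and 2 groups, and pyramidal neuron markers in 2, 1 and 2. The library highest in the leptomeningeal markers was also the highest of its group in 5 of 6 groups for H2-Aa and H2-Ab1, in 4 for Cd74, in 2 for H2-DMb1 and in 1 for H2-Eb1 and H2-DMa. The median log2 fold change of the 7 markers after DEX was -0.77 in PS, -0.59 in AS and 0.35 in control mice, with 1 marker lower in AS mice (Slc22a6) and 1 higher in control mice (Slc6a13). With the summed leptomeningeal level as a covariate, an alternative chosen after seeing the data, 3 of 6 class II genes were called lower after DEX in PS mice (H2-Eb1 at -0.60, limma adjusted p = 0.339, was not) and 5 of 6 in AS mice, and the medians over the 6 genes were -0.64 and -0.73. In these fits 189 of all 14060 genes were called lower in PS mice, against 373 without the covariate, and 422 in AS mice, against 699. For stress on saline, the medians with this covariate were 0.10 in PS and 0.32 in AS against control mice, against 0.41 and 0.65 without it. For the DEX response, they were -0.22 for PS minus control and -0.30 for AS minus control, against -0.93 and -0.88. The part of the leptomeninges in these differences was not tested. Endothelial markers (9 of 9 rows) also fell after DEX, 2 in PS and 5 in AS mice and 0 in control mice at the threshold. Their medians were -0.40, -0.65 and 0.17, and their part was not tested. The 5 blood genes had medians of -0.80 in PS, -0.19 in AS and 0.36 in control mice after DEX, with none at the threshold by limma, and their part was not tested either.

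**Figure D4:**
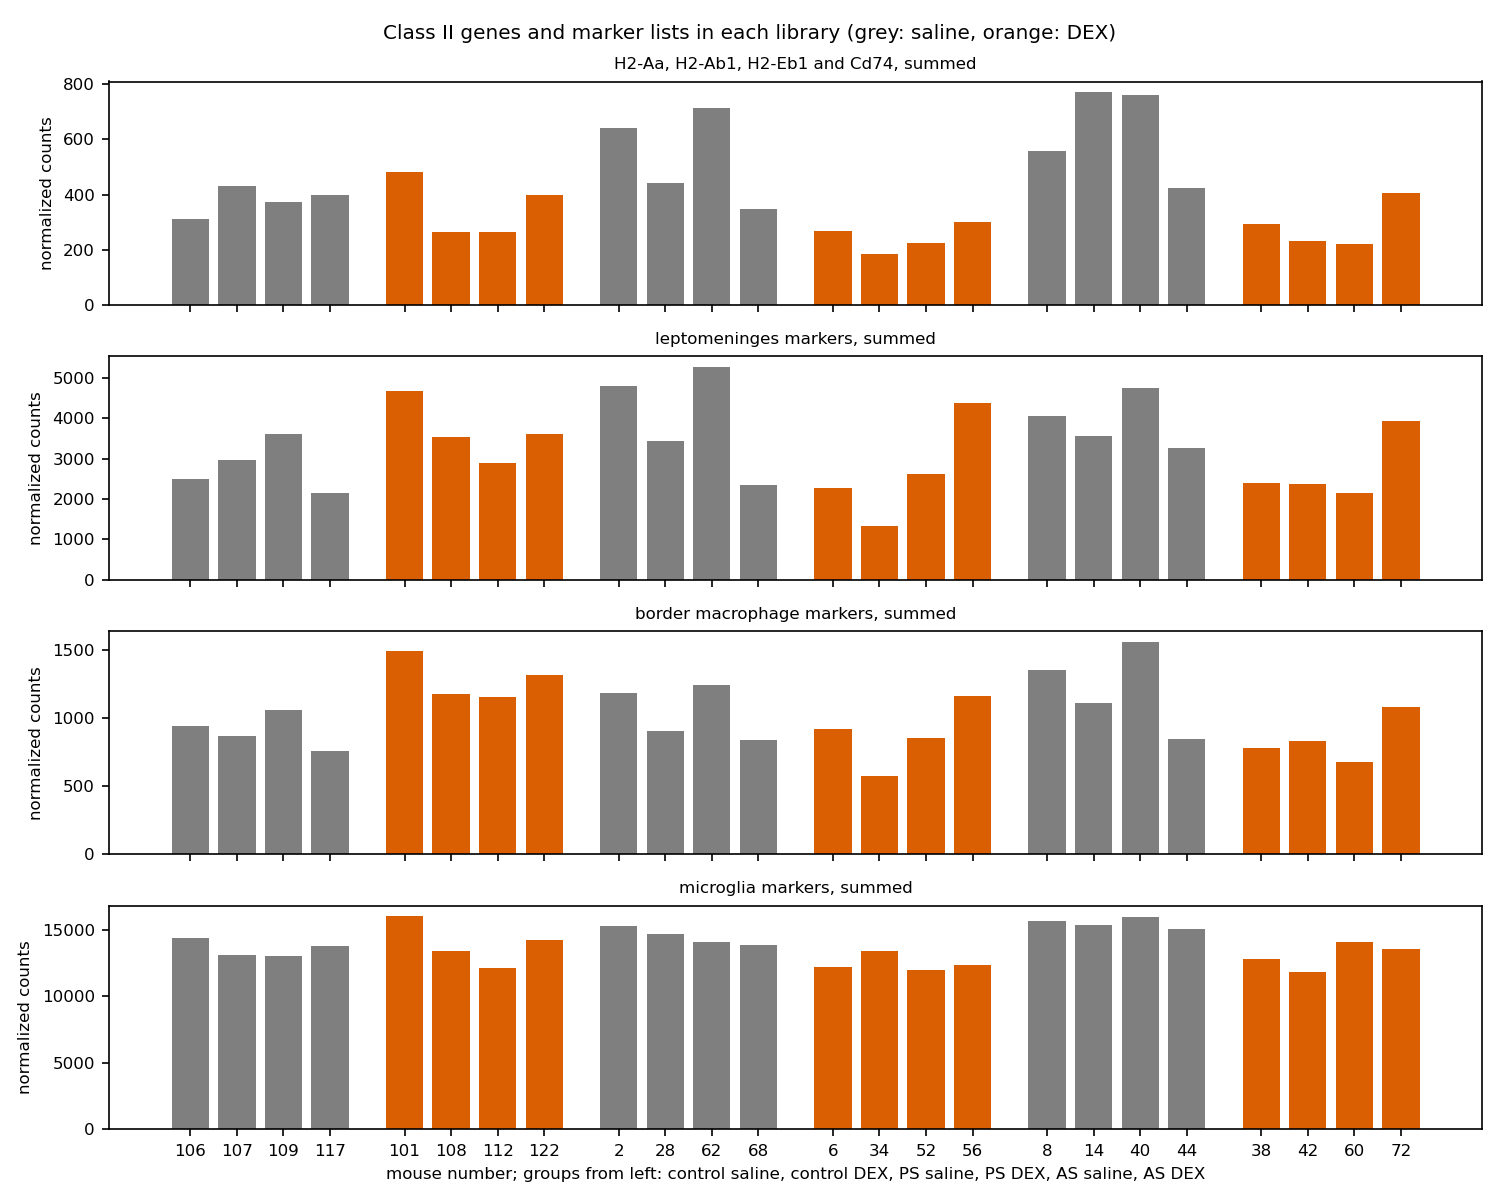
Summed normalized counts (y axes) in each of the 24 libraries (x axis, mouse number, groups from left to right) of H2-Aa, H2-Ab1, H2-Eb1 and Cd74, of 7 leptomeningeal, 5 border macrophage and 14 microglial markers (grey: saline, orange: DEX). The libraries of mice 62 and 2 in PS saline and of mouse 72 in AS DEX are the highest of their groups for the class II sum and for the leptomeningeal and border macrophage sums alike.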

How the data were processed

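Poly(A) RNA libraries (stranded, paired-end) of the PFC of 24 mice were analysed. The authors trimmed reads with fastp 0.20.1, aligned them to mm10 with HISAT2 2.2.1, counted genes of GENCODE vM22 with featureCounts and divided the counts by DESeq2 size factors; these deposited signal values are whole multiples of 1 read, within 0.01 read, for 100% of values, so reads and depth were recovered. The deposited p-values, made by the authors in DESeq2, served only to see which genes had been given one (14060), and the fold changes and adjusted values of their comparisons were not used.

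Groups came from the library names. Log2(normalized count + 1) was fitted with limma 3.58.1 (R 4.3.3, eBayes with a trend), 1 mean per group and all 24 libraries, for 9 comparisons, and a gene was called at an adjusted p (Benjamini-Hochberg, over all 14060 genes) under 0.1. Alternatives were edgeR 4.0.16 (quasi-likelihood) and DESeq2 1.42.0 on recovered reads, a pseudocount of 8, all genes, a mean of at least 100, only the groups compared, library size, quantile normalization, marker covariates and each library left out. The fits were tested on simulated counts. The members and lists were chosen with earlier results of these data known. Text names all members, list genes called in a comparison or among the 2 highest of their list, the 10 genes most like the 4 chain genes, and Fkbp5; some list genes are counted in their lists and not reported here by name. Each group holds 4 mice, and low counts limit the precision of single genes.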

Additional observations from a re-analysis of the deposited data

Results flagged for a closer look

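H2-DMb1 in control mice after DEX was at 33.4 normalized counts in mouse 112, against 52.2 to 54.6 in the other 3, so that the gap to the nearest library took up 0.889 of the group's range, above Dixon's limit for 4 samples. It was the only such case in 36 sets of 4 libraries, and chance gives about 1 in 20.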

How the results depend on the processing

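No paired analysis was possible because mouse numbers do not recur between groups. DEX lowered 4 of 6 genes in PS and 5 of 6 in AS mice under the pseudocount of 8, all genes, only the groups compared, library size, quantile normalization, edgeR and DESeq2, with 3 to 4 and 5 to 5 when 1 library was left out. A mean of at least 100 left only Cd74 and H2-DMa, with 1 and 2 called and 0 for the difference AS minus control. With summed microglia markers as a covariate 1 was called in PS and 1 in AS mice, with summed leptomeningeal markers 3 and 5; both covariates were chosen after seeing the data, and several microglia markers are themselves lowered by DEX. AS against control on saline had 0 calls, 1 by DESeq2, and 0 to 1 without 1 library. The difference AS minus control had 1 call, 0 with library size, quantile normalization and either marker covariate, 2 by DESeq2, and 0 to 2 without 1 library. The other 5 comparisons kept 0 calls under every alternative run.

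Differences near 0 changed sign. H2-DMa in PS against control on saline was -0.021 with microglia markers as a covariate and -0.0014 to 0.11 without 1 library. H2-DMb1 in AS against control was 0.00052 by edgeR, 0.0033 by DESeq2 and -0.11 to 0.090 without 1 library. H2-Ab1 in AS against PS was -0.029 to 0.41 without 1 library. For DEX in control mice, H2-Eb1 was -0.019 to 0.39, H2-Ab1 -0.17 to 0.13 and H2-DMb1 -0.27 to 0.0084 without 1 library. For the DEX response of PS minus control, H2-DMa was 0.0057 with leptomeningeal and 0.16 with microglia markers and -0.15 to 0.023 without 1 library, and H2-DMb1 was 0.14 and 0.086 with these covariates. For AS minus PS, H2-Aa was 0.043 with library size, 0.0083 with microglia markers and -0.24 to 0.19 without 1 library, and H2-Ab1 was 0.046 with library size and -0.31 to 0.13 without 1 library. There Cd74 was -0.073 to 0.31 and H2-DMb1 -0.39 to 0.12 without 1 library. None of these passed the test in any fit, and the cause was not tested. Low counts, at 17 to 233 reads for H2-Aa, H2-Ab1, H2-Eb1 and H2-DMb1, limit the precision of each value.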
